A study of Mus musculus with 20 samples.

Results

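The 10 immediate-early transcription factor genes Fos, Fosb, Fosl2, Jun, Junb, Egr1, Egr2, Egr3, Egr4 and Npas4 were followed in single-nucleus RNA-seq libraries of the hippocampus. They were chosen by name, as 10 of the 32285 genes in the count matrices, and their unique molecular identifiers (UMIs, one per captured RNA molecule) were summed per mouse over all nuclei and over cell classes. The 20 libraries came from male APP/PS1 mice (APPSwe/PS1ΔE9, a familial Alzheimer's disease model, fAD) and wild-type (WT) littermates aged 4.5 to 5.5 months, 1 mouse per library. Awake mice (labelled Wake) numbered 6 WT and 3 fAD. Isoflurane, begun at 5% and lowered to 1.5%, was given to 3 WT and 4 fAD mice (WT-Iso, fAD-Iso). Ketamine at 150 mg/kg with xylazine at 12 mg/kg was given to 2 WT and 2 fAD mice (WT-Ket, fAD-Ket). Both anesthetized states lasted 3 h before the tissue was taken, which gave 9 awake, 7 isoflurane and 4 ketamine mice over the 2 genotypes.

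Immediate-early genes are transcribed within minutes of a stimulus because the factors that switch them on, among them CREB and SRF, are already in the nucleus and need only be activated by calcium and kinase signals. In hippocampal neurons their RNA follows recent electrical activity and synaptic input, so they are widely used as activity markers, and in glia and vascular cells several of them also answer to growth factors, stress and injury. Fos and Jun proteins pair to form the AP-1 factor, Egr proteins are zinc-finger factors that bind GC-rich sites, and Npas4 is a neuron-restricted factor that is induced by calcium entry.

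The 4 promoters below are those of Npas4, Egr4, Fos and Jun, and Egr1 had no promoter entry. They show letters that calcium-dependent and stress-dependent activators are known to read. Each is the 250 bases ahead of the RefSeq transcription start, 5′ to 3′ on the gene's strand, in build GRCm38.p6. Capitals mark TGACG or its complement CGTCA, the core of the cAMP response element that CREB binds, and in Jun the AP-1-like letters TGACATCA. The intervals are chr19:4989972-4990221 (minus strand) for Npas4, chr6:85513590-85513839 (minus strand) for Egr4, chr12:85473640-85473889 (plus strand) for Fos and chr4:95052223-95052472 (minus strand) for Jun. The Npas4 interval lies within a longer annotated record of that gene, and the other 3 lie ahead of theirs.
Npas4: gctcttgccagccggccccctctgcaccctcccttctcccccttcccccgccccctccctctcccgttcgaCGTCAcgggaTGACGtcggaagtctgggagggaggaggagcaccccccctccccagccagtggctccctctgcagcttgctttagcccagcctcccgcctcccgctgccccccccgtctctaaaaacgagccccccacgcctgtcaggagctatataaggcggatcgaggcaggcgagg
Egr4: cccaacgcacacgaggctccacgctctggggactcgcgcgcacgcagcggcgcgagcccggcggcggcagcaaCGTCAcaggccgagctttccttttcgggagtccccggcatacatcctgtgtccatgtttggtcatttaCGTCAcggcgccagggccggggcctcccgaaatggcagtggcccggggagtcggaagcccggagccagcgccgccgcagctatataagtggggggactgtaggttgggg
Fos: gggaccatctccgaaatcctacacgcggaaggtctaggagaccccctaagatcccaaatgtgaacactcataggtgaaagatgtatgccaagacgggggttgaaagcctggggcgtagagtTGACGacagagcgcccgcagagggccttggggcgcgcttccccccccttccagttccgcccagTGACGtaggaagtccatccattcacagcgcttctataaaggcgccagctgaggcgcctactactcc
Jun: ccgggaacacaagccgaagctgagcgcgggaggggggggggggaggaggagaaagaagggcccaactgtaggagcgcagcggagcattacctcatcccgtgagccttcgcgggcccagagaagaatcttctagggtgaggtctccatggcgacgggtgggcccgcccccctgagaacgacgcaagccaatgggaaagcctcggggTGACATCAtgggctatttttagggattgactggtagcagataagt

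Npas4 held CGTCA at -179 to -175 and TGACG at -169 to -165, counted from the start site, with TATATA at -28 to -23. Egr4 had CGTCA at -177 to -173 and -109 to -105 with TATATA at -29 to -24, and Fos had TGACG at -129 to -125 and -66 to -62 with TATAAA at -33 to -28. In Jun neither orientation of the 5-letter core was found, and TGACATCA stood at -45 to -38. Searched on both strands, the 5-letter core was present in 17.8% of 32817 RefSeq promoter windows of the same 250 bases, TGACATCA in 2.93%, TATATA in 5.25% and TATAAA in 12.4%. Promoter entries were found for 8 of the 10 genes, and 6 of those 8 carried the core, Fosb at -60 to -56 and Junb at -106 to -102 among them. The EGR letters GCGNGGGCG, where N is any base, occurred in Fosl2 at -79 to -71 and in Fosb at -50 to -42, against 4.70% of all windows. These are matches of letters and not measured binding. No window was read for Egr1 and Egr3.

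The libraries held 160777 nuclei, 4743 to 10877 per mouse, and 9243992 to 25394891 UMIs. A nucleus was placed in 1 of 10 classes when at least 3 of the 8 markers of that class had a UMI and no other class had as many. This gave 70244 neurons (43.7%), which were dentate gyrus (DG) granule, CA1, CA3, other excitatory and inhibitory nuclei, and 41685 glia (25.9%), which were astrocytes, oligodendrocytes, their precursors (OPC) and microglia. A further 850 nuclei were vascular and 47998 (29.9%) stayed unassigned, and levels are CPM, UMI counts scaled by the TMM-normalized library size of the class in each mouse. All 8 markers of each list, the glial ones included, had UMIs in the neurons and likewise in the glia, so detection in these sums does not tell the classes apart. No more than 0.407% of cell barcodes were shared in any of 190 library pairs. Mice 1 to 4 stood apart with 0.939% to 1.78% of UMIs from mitochondrial genes against 0.0353% to 0.336% elsewhere. All 4 ketamine mice carried numbers 25 to 28, and mouse 29 was the only awake mouse of that run of numbers, so a difference between runs and the ketamine state are separated only through that mouse. The fAD transgenes are driven by the prion protein promoter, and the level of Prnp over all nuclei was 63.6 to 433 CPM in the 9 mice labelled fAD and 42.2 to 196 CPM in the 11 labelled WT. Within runs of mouse numbers, the libraries labelled fAD of mice 11, 17 and 20 lay below a library labelled WT, and that of WT mouse 14, at 196 CPM, lay well above fAD mouse 17, at 74.5 CPM. Results by genotype are therefore also given without these 4 mice. In sums of this kind fewer cells that express a gene and less RNA per cell cannot be told apart.

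In the awake hippocampus the 10 genes were not shared out alike among the classes. Npas4 was highest in other excitatory nuclei, at 14.3 ± 6.26 CPM (SD, n = 9 mice), and in CA1, at 14.3 ± 6.29 CPM, followed by CA3 at 7.03, inhibitory nuclei at 6.72, microglia at 5.07, oligodendrocytes at 3.81, DG granule nuclei at 2.80, OPC at 2.72 and astrocytes at 2.36 CPM. CA1 nuclei ranged from 7.01 to 26.5 CPM over mice and DG granule nuclei from 1.12 to 4.94 CPM, so these ranges did not overlap. Microglia (6 UMIs in all) and OPC (7 UMIs) were at the limit of counting. Jun, the partner of Fos in AP-1, had another order. It was at 43.9 ± 13.9 CPM in DG granule nuclei and at 10.7 ± 5.27 in CA1, 12.0 ± 4.20 in CA3 and 7.89 ± 2.03 CPM in inhibitory nuclei. The lowest DG value, 31.5 CPM, lay above the highest of CA1 (20.3), CA3 (19.0) and inhibitory nuclei (10.6). As given further below, the DG granule and CA1 marker lists were as high in awake glia as in awake neurons. Whether glial nuclei were placed in these classes, and their part in the Jun and Npas4 levels, was not tested. Microglia (59.7 CPM), astrocytes (42.3), oligodendrocytes (36.3) and OPC (36.1) were at or near the DG level for Jun, and vascular nuclei, few in number and with 340 of 850 from awake mouse 10, averaged 414 CPM.

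Among the 9 neuronal and glial classes Fos was highest in astrocytes, at 20.0 ± 19.4 CPM with a range of 6.54 to 65.4, and lowest in CA3, at 4.42 ± 2.99 CPM. Vascular nuclei had 35.4 ± 44.5 CPM, from 25 UMIs in all and with none in 4 of the 9 mice. Egr1, which is induced by synaptic plasticity, was led by other excitatory nuclei at 20.8 ± 8.90 and CA1 at 14.7 ± 4.22 CPM, and was lowest in CA3 at 6.53 ± 2.13 CPM. Fosl2, a further Fos-family member, was at 16.2 CPM in other excitatory nuclei, 13.3 in CA1 and 5.00 in astrocytes. Egr4 was at 12.7 CPM in CA1 and 3.32 in inhibitory nuclei, and Egr3 was at 8.53 CPM in CA1 and 2.33 in inhibitory nuclei. Junb, an AP-1 partner that can restrain Jun, was at 28.8 CPM in CA1, 36.0 in microglia and 12.2 in inhibitory nuclei. For each of the 10 genes the ranges over mice overlapped in 8 of 8 pairs of classes that were neighbours in its order.

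**Figure D1:**
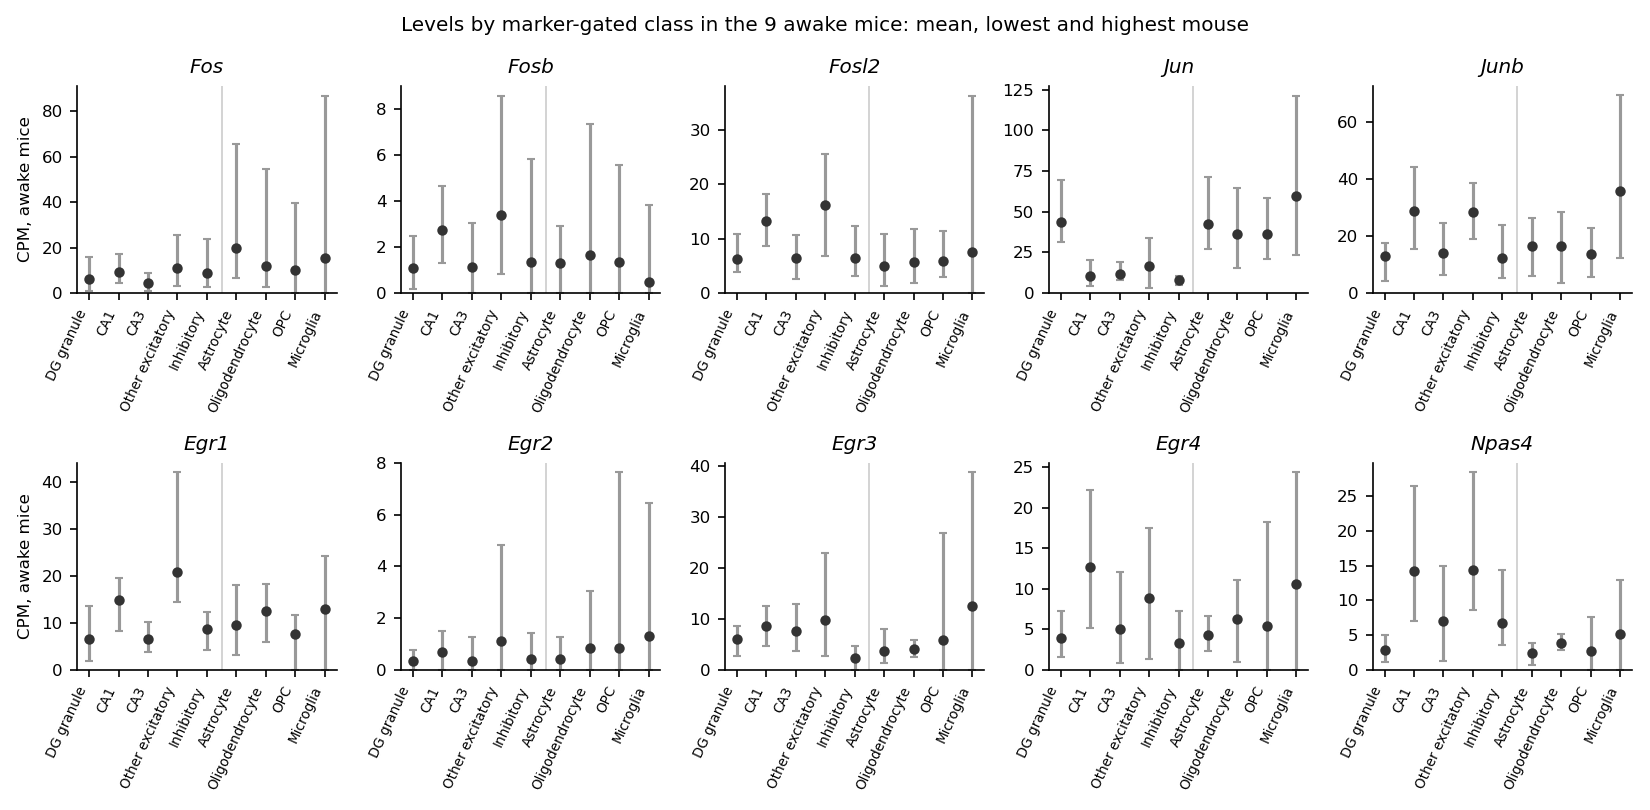
Level of each gene in the cell classes of the 9 awake mice, with points at the mean CPM, bars from the lowest to the highest mouse and a separate axis for each gene. Jun is high in DG granule and glial nuclei and low in CA1 (10.7 CPM), whereas Npas4 is high in CA1 and other excitatory nuclei (14.3 CPM each).

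Under isoflurane 6 of the 9 genes that could be tested in neurons were lower than in awake mice and none was higher. They were Npas4, Egr1, Fos, Egr4, Fosl2 and Fosb, and the median log2 difference of the 9 was -1.41 against 0.01 for all 18577 genes tested. Over those genes, 1.99% were called lower and 3.86% higher. Egr2, a myelin and neuronal zinc-finger factor, had 44 UMIs in awake neurons and 16 under isoflurane and did not pass the filter on low counts. Calls are edgeR quasi-likelihood tests on the sums per mouse, with Benjamini-Hochberg adjusted p under 0.05 over all genes and the WT and fAD differences averaged.

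Npas4 had the smallest adjusted p. Its neuronal level ran from 4.98 to 9.80 CPM in the 9 awake mice, with a median of 6.72, and from 1.34 to 2.40 CPM in the 7 isoflurane mice, with a median of 1.49. Every isoflurane mouse was below every awake mouse, and the difference was -1.98 ± 0.20 on the log2 scale (SE, adjusted p = 6.2e-05), or 3.94-fold lower. Egr1 ran from 6.37 to 13.8 CPM awake (median 9.45) and from 1.49 to 6.18 CPM under isoflurane (median 2.26). The groups came close only through mouse 3 (WT-Iso, 6.18 CPM) and did not overlap, and Egr1 was 3.25-fold lower (log2 -1.70 ± 0.29, adjusted p = 0.0026).

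Among the Fos family, Fos itself ran from 1.74 to 15.6 CPM awake, with a median of 5.24, and from 0.157 to 3.13 CPM under isoflurane, with a median of 0.729. Mice 3 and 11 (3.13 and 1.91 CPM) lay inside the awake range and the other 5 isoflurane mice lay below it. The difference was -2.73 ± 0.61 on the log2 scale (adjusted p = 0.013), or 6.62-fold lower. Fosb, whose truncated form accumulates with repeated stimulation, had a median of 1.43 CPM awake (0.653 to 3.04) and 0.553 CPM under isoflurane (0.0784 to 1.09). Its groups overlapped in 3 isoflurane mice, and it was 3.17-fold lower (log2 -1.67 ± 0.45, adjusted p = 0.037). The Fosb call was lost on leaving out any of 8 single mice (3, 4, 10, 12, 13, 17, 18 or 20), with the stricter gate and without the nuclei with the most UMIs. Fosl2 had a median of 8.19 CPM awake (6.33 to 12.6) and 4.31 CPM under isoflurane (2.87 to 8.52), where mouse 15 alone was inside the awake range, and the difference was -0.89 ± 0.23 (adjusted p = 0.029). Its call was lost under the same gate and nuclei settings and on leaving out mouse 3, 4, 10, 13 or 20.

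Egr4 had a median of 6.12 CPM awake (2.20 to 10.6) and 1.98 CPM under isoflurane (1.10 to 6.36). Mouse 3 was again the highest isoflurane mouse, the other 6 were all below the awake range, and the difference was -1.41 ± 0.35 (adjusted p = 0.025). Without mouse 16 or without mouse 18 Egr4 was not called, whereas Npas4, Egr1 and Fos were called whichever of the 20 mice was left out. Egr3, a close relative of Egr1, had a median of 5.96 CPM awake (3.49 to 10.3) and 5.07 CPM under isoflurane (2.43 to 6.43), with overlapping groups and no call (log2 -0.53 ± 0.23, adjusted p = 0.21). Junb had medians of 17.5 and 9.40 CPM, with mouse 3 at 30.1 CPM above every awake mouse (log2 -0.53 ± 0.28, adjusted p = 0.32).

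Jun was the 1 tested gene with a difference near 0. Its neuronal level ran from 18.2 to 37.8 CPM awake (median 24.8) and from 11.9 to 60.8 CPM under isoflurane (median 25.2), and the groups overlapped throughout. The log2 difference was 0.05 ± 0.27 (adjusted p = 0.96). For comparison, Arc, a synaptic effector that is an immediate-early gene but no transcription factor, averaged 7.99 ± 4.16 CPM awake and 1.56 ± 0.46 CPM under isoflurane (log2 -2.43 ± 0.38, adjusted p = 0.0020).

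**Figure D2:**
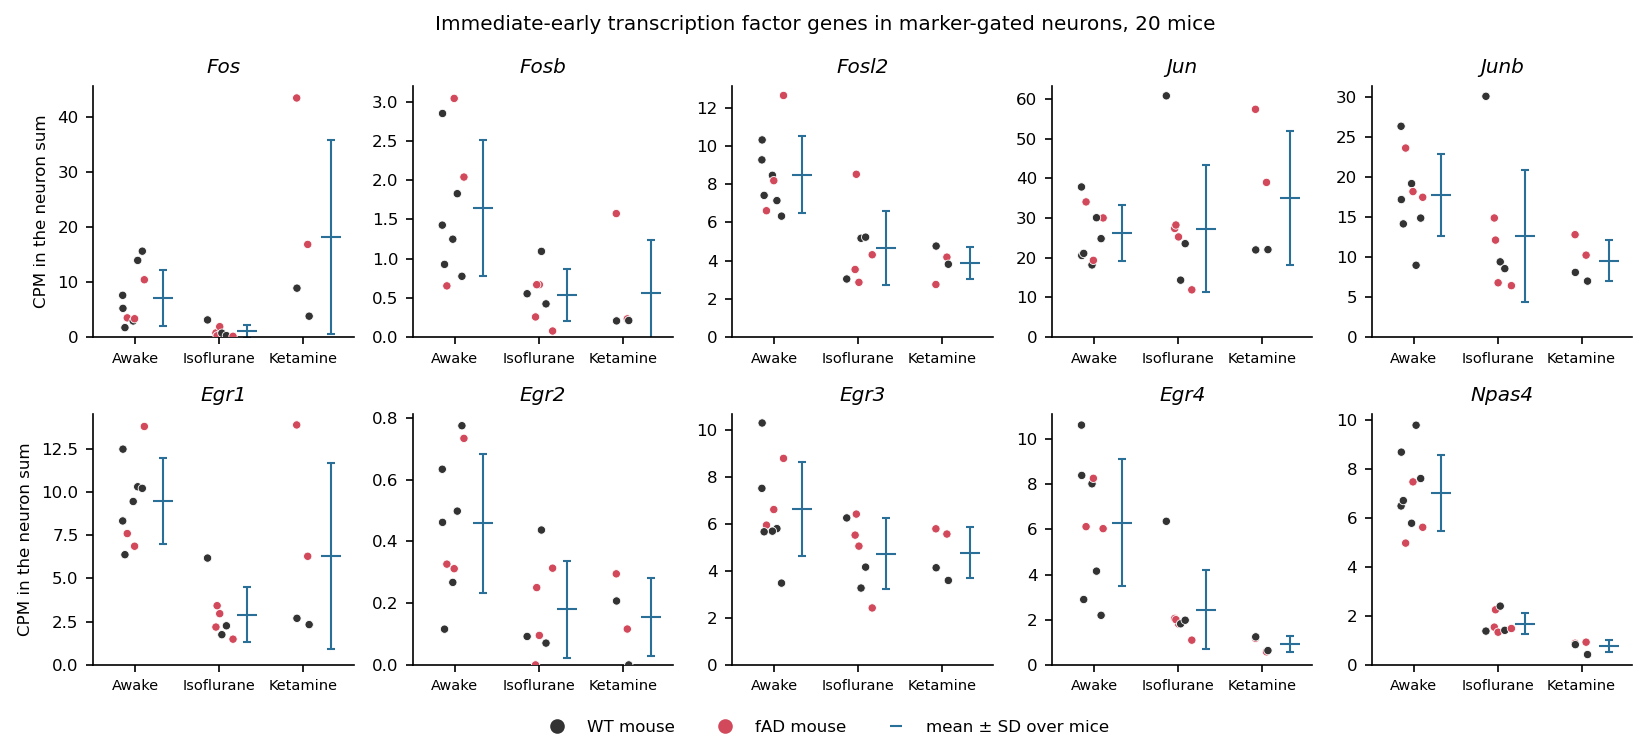
Neuronal CPM of each gene in every mouse on a linear axis from 0, grouped by state and coloured by genotype, with the mean and SD over mice beside the points (an SD that passes 0 ends at the axis). The isoflurane and ketamine mice lie below all 9 awake mice for Npas4, whereas the ketamine mice spread from 3.81 to 43.5 CPM for Fos.

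The 5 runs of mouse numbers allow the same comparison inside smaller sets of libraries. Isoflurane and awake mice occurred together in 4 of them. Differences inside runs are of mean log2 CPM with a prior count of 2, which brings those of low genes nearer to 0. Npas4 was lower under isoflurane in 4 of 4 runs, by a log2 difference of -2.40 to -1.43. Egr1 (-1.96 to -1.07), Fos (-2.39 to -1.59), Egr4 (-1.99 to -0.89), Fosb (-1.48 to -1.02), Fosl2 (-1.71 to -0.32), Junb (-1.02 to -0.23) and Egr3 (-0.80 to -0.18) were also lower in 4 of 4, and Jun was lower in 2 of 4. With the run as a block 7 genes were called, Junb joining the 6. Without mice 1 to 4, the libraries of high mitochondrial share, 3 genes were called, Egr1, Egr4 and Npas4. Without mice 11, 14, 17 and 20, whose Prnp level was at odds with the genotype label, 3 were called, Npas4 (-1.84 ± 0.23, adjusted p = 0.0044), Egr1 (-1.74 ± 0.35, adjusted p = 0.015) and Fos (-3.22 ± 0.69, adjusted p = 0.021).

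Over all nuclei, where all 10 genes passed the filter, 4 were lower under isoflurane. These were Npas4 (log2 -1.92, adjusted p = 0.00031), Egr4 (-1.44, adjusted p = 0.015), Fosb (-1.51, adjusted p = 0.028) and Egr1 (-1.36, adjusted p = 0.034). None was higher, against 2.26% of all genes lower and 4.01% higher. Fosl2 missed the threshold (log2 -0.67, adjusted p = 0.052), as did Fos (-1.84, adjusted p = 0.11) and Egr2 (-1.54, adjusted p = 0.083). DESeq2 called 6 genes, among them Fosl2 (-0.67, adjusted p = 0.013) and Egr2 (-1.57, adjusted p = 0.037). Without mouse 3 Fos was called (-2.78, adjusted p = 0.037), and Fosl2 was called without mouse 15 (adjusted p = 0.022) or mouse 29 (adjusted p = 0.028). Leaving out mouse 10, 18 or 20 ended the calls of Egr1 and Fosb, as did leaving out the nuclei with the most UMIs. In all, the Egr1 call was lost on leaving out any 1 of 7 mice and without mice 25 to 29, and the Fosb call on leaving out any 1 of 5 mice (3, 10, 17, 18 or 20) and without mice 1 to 4. With the run as a block Fosb was not called (adjusted p = 0.062) and Fosl2 was (log2 -0.67, adjusted p = 0.040). Without mice 11, 14, 17 and 20 only Npas4 was called.

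The 9 classes that were fitted one by one gave 16 calls for isoflurane, each of them lower and in a neuron class. Of all gene-by-class tests 3.04% were called. In CA1 pyramidal nuclei 6 genes were lower. Fos had a median of 7.58 CPM awake (4.63 to 17.0) and 0.480 CPM under isoflurane (0 to 3.55), below the awake range in every mouse (log2 -3.09 ± 0.54, adjusted p = 0.0024). Npas4 in CA1 had medians of 13.7 and 4.15 CPM (log2 -1.59 ± 0.30, adjusted p = 0.0040) and Egr1 medians of 14.4 and 3.60 CPM (log2 -1.55 ± 0.30, adjusted p = 0.0045). Egr4 (log2 -1.70), Egr3 (log2 -1.03) and Fosl2 were the other three, and Fosl2 had means of 13.3 ± 3.32 CPM awake (SD, n = 9) and 6.69 ± 2.68 CPM under isoflurane (SD, n = 7).

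In other excitatory nuclei 4 genes were lower, with Npas4 at 14.3 ± 6.26 CPM awake and 1.13 ± 0.82 CPM under isoflurane (log2 -3.36 ± 0.50, adjusted p = 0.00070), Fos at -3.46, Egr1 at -2.56 and Egr4 at -2.55. In CA3, Fos fell to 1 UMI over the 7 isoflurane mice, 6 of which had none, from 64 UMIs over the 9 awake mice, and Egr1 (-1.88) and Egr3 (-1.19) were lower too. Inhibitory nuclei had lower Fos (-2.50) and Npas4 (-2.53). DG granule nuclei, the most numerous class with 39658 nuclei, had 1 call, Npas4, at a median of 2.69 CPM awake (1.12 to 4.94) and 0.772 CPM under isoflurane (0.175 to 1.21; log2 -1.94 ± 0.40, adjusted p = 0.017). Whether these classes differ from each other in their response was not tested. No glial class had a call for isoflurane. Fewer of the 10 genes passed the filter there, 5 in astrocytes, 5 in oligodendrocytes, 2 in OPC and 3 in microglia. In the neuron classes 6 to 9 passed it. Leaving out awake mouse 10 gave 10 calls in place of 16, and without mice 1 to 4 there were also 10. With the stricter gate there were 6, and without the nuclei with the most UMIs 10. Of CA1 nuclei 34.0%, and of other excitatory nuclei 40.0%, led the next class by only 1 marker. Without mice 11, 14, 17 and 20 there were 7.

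**Figure D3:**
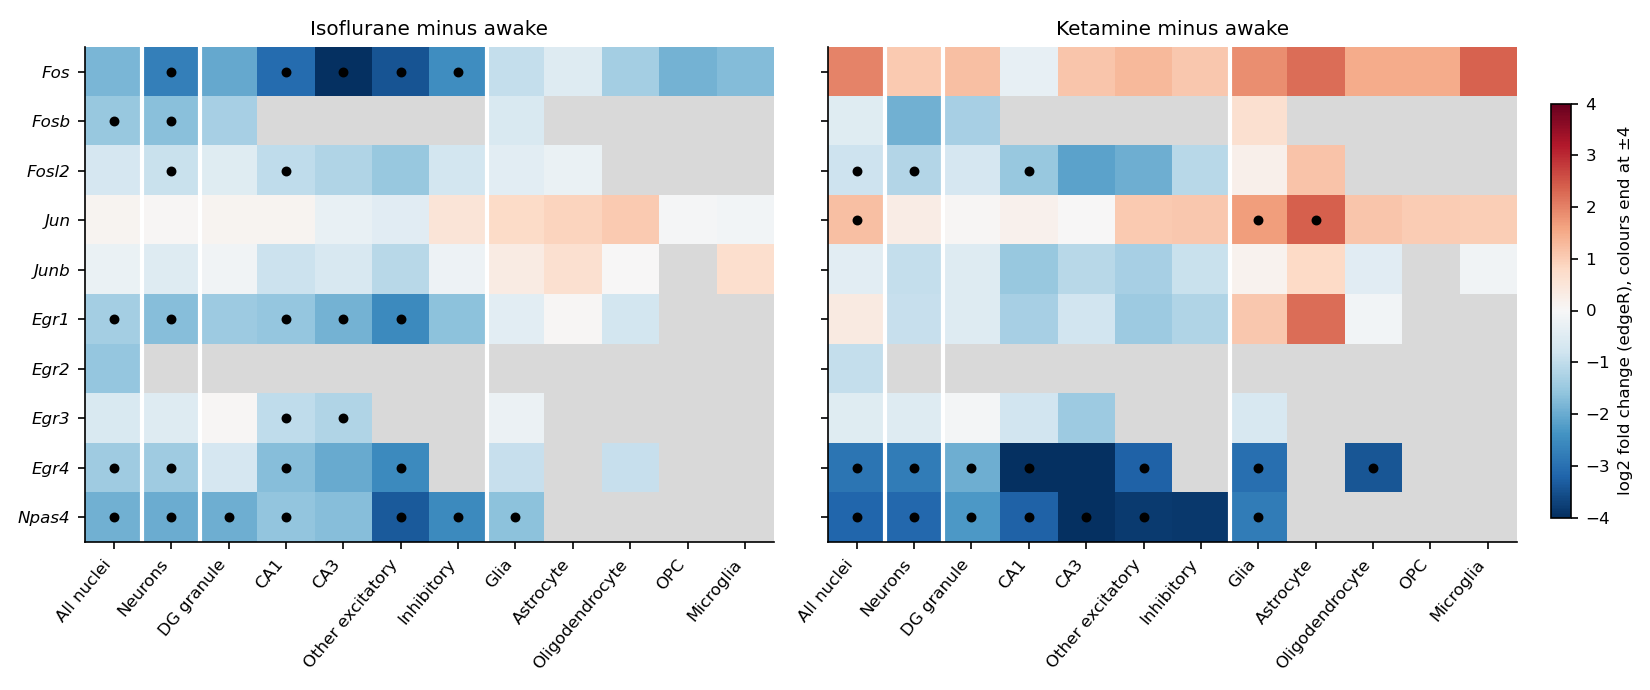
Fitted log2 difference from awake of each gene over all nuclei, in neurons, in glia and in each class, for isoflurane and for ketamine with xylazine, with colours ending at 4 on either side, black dots for adjusted p under 0.05 and grey where a gene did not pass the filter. In the single classes the 16 dots for isoflurane sit in neuron classes, and the astrocyte Jun dot for ketamine is on the higher side.

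Under ketamine with xylazine Npas4, Egr4 and Fosl2 were lower in neurons than in awake mice and none of the 10 genes was called higher, 3 of 9 tested, against 6.21% of all genes called lower and 5.96% higher. The median log2 difference of the 9 was -0.97 and that of all genes -0.03. The awake mice are the same as in the isoflurane comparison.

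Npas4 was at 0.885, 0.930, 0.424 and 0.829 CPM in neurons of ketamine mice 25, 26, 27 and 28, the first pair fAD and the second pair WT. All 4 were far below the awake minimum of 4.98 CPM, and the 23 UMIs of the 4 mice compare with 662 in the 9 awake mice. The difference was -3.14 ± 0.29 on the log2 scale (adjusted p = 3.6e-05), or 8.79-fold lower. Egr4 was at 1.18, 0.581, 0.636 and 1.24 CPM, all below the awake minimum of 2.20 CPM, with a log2 difference of -2.80 ± 0.51 (adjusted p = 0.0031), or 6.97-fold lower. Fosl2 was at 2.75, 4.19, 3.81 and 4.77 CPM, below the awake minimum of 6.33 CPM (log2 -1.17 ± 0.29, adjusted p = 0.017).

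Fos spread widely over the ketamine mice. Its neuronal level was 43.5, 16.9, 3.81 and 8.91 CPM in mice 25 to 28, against 1.74 to 15.6 CPM awake. The fAD-Ket mice were above every awake mouse and the WT-Ket mice were within the awake range, so that the mean difference of 1.05 ± 0.61 was not called (adjusted p = 0.26). Egr1 was at 13.9, 6.28, 2.33 and 2.69 CPM (log2 -0.91 ± 0.35, adjusted p = 0.094). Jun was at 57.4, 39.0, 22.0 and 22.0 CPM (log2 0.29 ± 0.32, adjusted p = 0.57), and Junb at 12.8, 10.2, 6.99 and 8.08 CPM (log2 -0.97 ± 0.35, adjusted p = 0.075). Fosb was at 1.57, 0.233, 0.212 and 0.207 CPM, with mouse 25 alone inside the awake range (log2 -1.92 ± 0.67, adjusted p = 0.068), and Egr3 was at 5.80, 5.58, 3.60 and 4.14 CPM, all inside it (adjusted p = 0.23). Mouse 25 was thus the highest of the 4 for Fos, Fosb, Jun, Junb, Egr1 and Egr3.

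Beside awake mouse 29, the only awake mouse of their run of numbers, the ketamine mice had a difference in mean log2 CPM, with the same prior count, of -3.07 for Npas4, -1.18 for Egr4 and -0.71 for Fosl2 in neurons. Fos was at -0.30 in that comparison, since mouse 29 had the highest Fos level of the awake mice (15.6 CPM), and Egr1 was at -1.04 and Jun at 0.38. With the run as a block Npas4 was the 1 gene still called. The Fosl2 call was also lost without mouse 25 (adjusted p = 0.10) or mouse 27 (adjusted p = 0.11), and leaving out isoflurane mouse 3, which changes the estimate of the spread, gave 5 calls.

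Ketamine was also set directly against isoflurane in neurons, where 2 of 9 genes and 5.88% of all genes were called. Fos was higher under ketamine by 3.78 ± 0.69 on the log2 scale (adjusted p = 0.0072), 13.7-fold, and the lowest ketamine mouse, at 3.81 CPM, was above the highest isoflurane mouse, at 3.13 CPM. Npas4 was lower by a log2 difference of -1.16 ± 0.29 (adjusted p = 0.029), with the highest ketamine mouse at 0.930 CPM and the lowest isoflurane mouse at 1.34 CPM. Egr4 was lower by a similar size without a call (log2 -1.39 ± 0.52, adjusted p = 0.11). Leaving out mouse 25 left neither Fos nor Npas4 called in this comparison, leaving out mouse 15, 16, 26, 27 or 28 left 1 of them, and with the run as a block, which no isoflurane mouse shares with a ketamine mouse, there was no call either.

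Over all nuclei the ketamine mice had 4 calls among 10 genes, against 6.47% of all genes called lower and 5.92% higher. Npas4 (log2 -3.18, adjusted p = 4.5e-05), Egr4 (-2.93, adjusted p = 0.0015) and Fosl2 (-0.84, adjusted p = 0.033) were lower, and Jun was higher (1.21 ± 0.36, adjusted p = 0.036). Fos averaged 10.5 CPM awake and ran from 7.43 to 171 CPM under ketamine (log2 1.98 ± 0.70, adjusted p = 0.072), and it was called without mouse 3 (adjusted p = 0.045), mouse 10 (adjusted p = 0.0498) or mouse 29 (adjusted p = 0.031). With the run as a block only Npas4 was called, and leaving out mouse 13, 25, 27 or 28 ended the calls of Jun and Fosl2. Jun was lost on leaving out any 1 of 7 mice (also 2, 14 and 17) and with at least 500 genes per nucleus, and Fosl2 on leaving out any 1 of 6 (also 10 and 26), without mice 1 to 4 and without the nuclei with the most UMIs.

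Single classes gave 10 calls for ketamine, where 4.67% of all gene-by-class tests were called. DG granule nuclei had lower Npas4 (log2 -2.31 ± 0.57, adjusted p = 0.018) and Egr4 (-1.94 ± 0.52, adjusted p = 0.025). CA1 had lower Npas4, with 6 UMIs in the 4 mice against 260 awake (log2 -3.23 ± 0.53, adjusted p = 0.0026), lower Fosl2 (-1.51 ± 0.39, adjusted p = 0.024) and lower Egr4, which had UMIs in 1 of the 4 mice. The calls in CA3 (Npas4), other excitatory nuclei (Npas4 and Egr4) and oligodendrocytes (Egr4) rested on 2 or 3 UMIs in the ketamine mice and are given without a fold. The remaining call was higher and lay in astrocytes. There Jun was at 441, 298, 157 and 95.1 CPM in mice 25 to 28 and at 27.3 to 71.7 CPM (median 34.0) in the awake mice. The groups did not overlap, and the log2 difference was 2.38 ± 0.46 (adjusted p = 0.0057). Fos and Egr1 in astrocytes ran from 27.1 to 341 and from 9.21 to 108 CPM under ketamine, without a call (adjusted p = 0.060 and 0.055). Leaving out mouse 25, 26 or 27 gave 4 calls in place of 10, leaving out mouse 28 gave 5, and with the run as a block there were 0.

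In the pooled glia Npas4 was the only gene lower under isoflurane, 1 of 9 tested, with 1.64% of all genes called lower and 2.92% higher. Its glial level was 1.34 to 4.21 CPM awake (75 UMIs) and 0.328 to 1.75 CPM under isoflurane (19 UMIs), with a log2 difference of -1.63 ± 0.37 (adjusted p = 0.018). The groups overlapped narrowly. Leaving out awake mouse 10, mice 1 to 4 or mice 11, 14, 17 and 20 ended the call (adjusted p = 0.057, 0.069 and 0.066). Without mice 25 to 29 or the nuclei with the most UMIs, Npas4 did not pass the filter on low counts. The same held with the stricter gate and with at least 500 genes per nucleus, so these settings did not test it. All 8 markers of each neuronal list had UMIs in glia, the CA3 list summing to 303 to 426 CPM in awake glia, 253 to 363 under isoflurane and 239 to 297 under ketamine, against 587 to 894 in awake neurons. The DG granule and CA1 lists were as high in awake glia (2169 to 2718 and 1025 to 1516 CPM) as in awake neurons (2084 to 3074 and 828 to 1393 CPM). Glial expression of these markers and RNA from neurons are not separated by these lists, and the part of either in the glial Npas4 level was not tested.

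Under ketamine the glia had 3 calls of 9, against 2.92% of all genes called lower and 3.93% higher. Npas4 (log2 -2.80 ± 0.57, adjusted p = 0.0085) and Egr4 (-3.01 ± 0.63, adjusted p = 0.0099) were lower, and both rested on few molecules, 4 and 8 UMIs in the 4 ketamine mice. Jun was higher, at 239, 175, 98.6 and 50.9 CPM in mice 25 to 28 against 25.6 to 65.7 CPM awake (log2 1.68 ± 0.43, adjusted p = 0.025). Mouse 28 lay inside the awake range. Glial Fos was at 195, 85.1, 16.1 and 22.8 CPM, against a median of 6.70 and a maximum of 56.8 CPM awake (log2 1.86 ± 0.74, adjusted p = 0.13). That maximum was awake mouse 29, without which glial Fos was called higher (log2 2.42, adjusted p = 0.027). Leaving out mouse 25 left 1 of the 3 calls, leaving out mouse 27 left none, and with the run as a block there were 0. The Jun call was also lost without mouse 2 or mouse 26. With the stricter gate or at least 500 genes per nucleus, Npas4 did not pass the filter on low counts and was not tested. The same held without the nuclei with the most UMIs.

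Glia and neurons of the same mice could be set against each other, with the mouse as a block, to test whether a state shifted them unequally. This test was added after the data had been seen. For isoflurane 3 genes differed, Fos (log2 1.86 ± 0.39, adjusted p = 0.0090), Egr1 (1.16 ± 0.32, adjusted p = 0.044) and Junb (0.83 ± 0.19, adjusted p = 0.015), all relatively higher in glia, where 3.22% of all genes differed. Per mouse, the log2 ratio of the glial to the neuronal CPM of Fos, taken with no prior count, ran from -0.18 to 1.86 awake (median 0.87) and from 0.47 to 4.11 under isoflurane (median 2.39), where some sums held only 1 or 2 UMIs. The ranges overlapped, and without mice 1 to 4, or without mouse 4 alone, none of the 3 was called. The Egr1 call was lost on leaving out any of 14 single mice (1, 3, 4, 10, 11, 12, 13, 14, 17, 18, 19, 20, 25 or 26) and with only the states compared. Fos was also lost without mouse 3 and Junb without mouse 18.

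For ketamine 4 genes differed, Egr1 (log2 1.96 ± 0.37, adjusted p = 0.0062), Jun (1.37 ± 0.26, adjusted p = 0.0073), Junb (1.11 ± 0.25, adjusted p = 0.021) and Fosl2 (1.40 ± 0.33, adjusted p = 0.028), against 2.43% of all genes. For Egr1 the log2 ratio of glia to neurons was -0.35 to 0.75 awake and 1.61 to 2.71 under ketamine, without overlap. For Fosl2 it was -1.59 to 0.02 awake and 0.23 to 1.49 under ketamine, again without overlap, and for Jun -0.31 to 1.40 and 1.21 to 2.17, with a small one. The awake maximum for Jun was mouse 29, the only awake mouse of the run that holds the ketamine mice, and the next awake mouse was at 1.01. Mouse 29 was also inside the ketamine range for Junb (0.38, range 0.26 to 1.37). It was outside that range for Egr1 (0.35) and Fosl2 (-1.59). The part of the run in these differences was not tested. Npas4 was not called in either test. Its ratios were -2.28 to -0.44 awake, -2.08 to 0.04 under isoflurane and -1.57 to -0.26 in the 3 ketamine mice with a glial Npas4 UMI, all below 0 except that of isoflurane mouse 20. Leaving out mouse 27 left no call and leaving out mouse 25 left Egr1 and Jun. Fosl2 was also lost without mouse 28 (adjusted p = 0.18) and Junb without mouse 26 (adjusted p = 0.051).

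**Figure D4:**
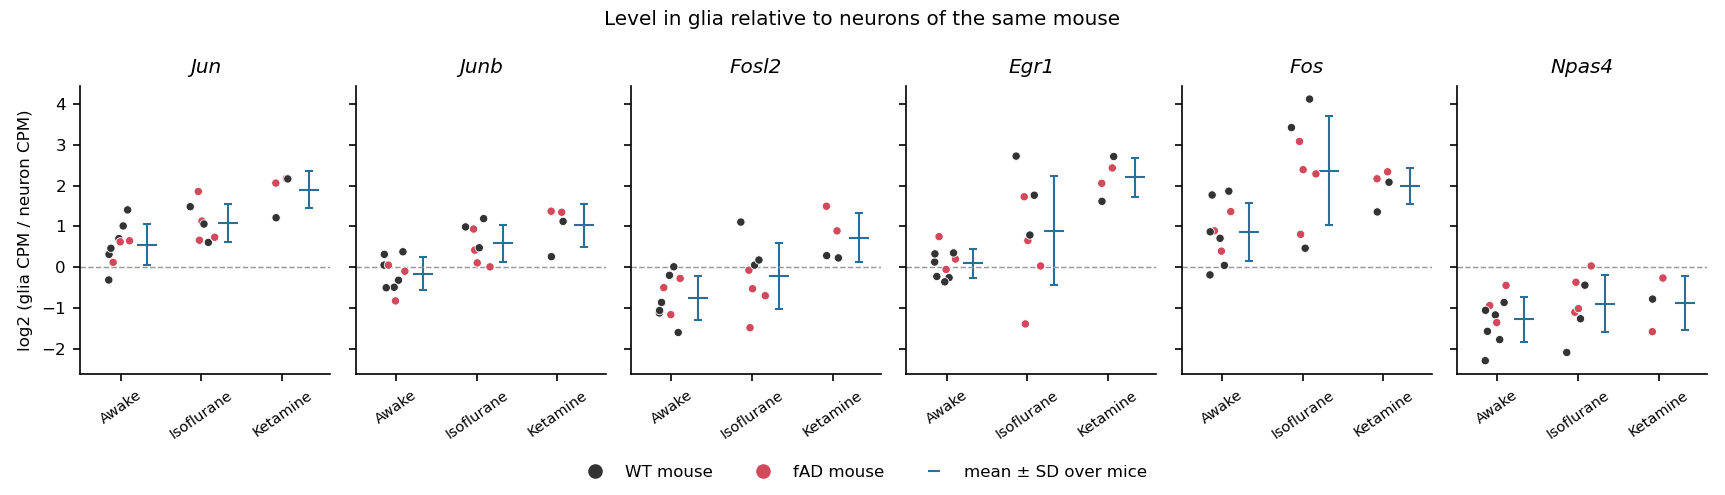
Log2 ratio of the glial to the neuronal CPM of 6 genes in every mouse with UMIs in both sums, by state and coloured by genotype, with the mean and SD over mice beside the points and no prior count added. For Egr1 the ketamine mice lie at 1.61 to 2.71, above the awake mice at -0.35 to 0.75, and for Fos the isoflurane mice have a median of 2.39 against 0.87 awake.

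The share of each gene's molecules that lay in neurons was also counted over the pooled mice of a state. Neurons held 62.0% of 1068 Npas4 UMIs awake, 58.2% of 261 under isoflurane and 53.5% of 43 under ketamine. For Fos the neuronal share was 40.9% of 1541 UMIs awake, 20.9% of 407 under isoflurane and 15.9% of 4083 under ketamine, and the glial share was 23.9%, 40.3% and 22.9%. Under ketamine 61.2% of Fos and 52.1% of Jun UMIs were in unassigned nuclei, against 33.5% and 22.9% awake, and the neuronal share of Jun was 20.7% against 51.8% awake. These pooled shares follow the mice with the most molecules. The make-up of the nuclei differed too. Neurons were 32774 of 71436 nuclei awake, 28759 of 63435 under isoflurane and 8711 of 25906 under ketamine. Unassigned nuclei numbered 19468, 18960 and 9570. The part of this make-up in the shares was not tested.

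Mouse 25 (fAD-Ket) held 3014 of the 4083 Fos UMIs of the ketamine mice, mouse 26 held 787, mouse 27 held 65 and mouse 28 held 217. Awake mouse 29 of the same run held 409. In mouse 25 unassigned nuclei held 1918 Fos UMIs, and 225 of these nuclei had at least 3 Fos UMIs each and held 1188. Folds of CPM over the other unassigned nuclei of that mouse were ranked among genes besides Fos with at least 50 UMIs in the 225 nuclei. The highest were Hspa1b (20.6-fold), a heat-shock protein, Btg2 (19.5), an antiproliferative rapid response gene, and Ccn1 (13.8), a matricellular protein. Egr1 (12.9), Zfp36 (12.0), which destabilizes mRNAs, and Jun (11.2) followed. The median depth of the 225 nuclei was 708 UMIs against 837.5. The vascular marker Ebf1 had a UMI in 64.0% of them against 23.8% of the others, while Pecam1 had none, and the astrocyte marker Slc1a3 was in 54.2% against 31.7%. They are described by these genes only and were not placed in a class. They are nuclei of 1 mouse, selected on Fos, and no test was made.

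**Figure D5:**
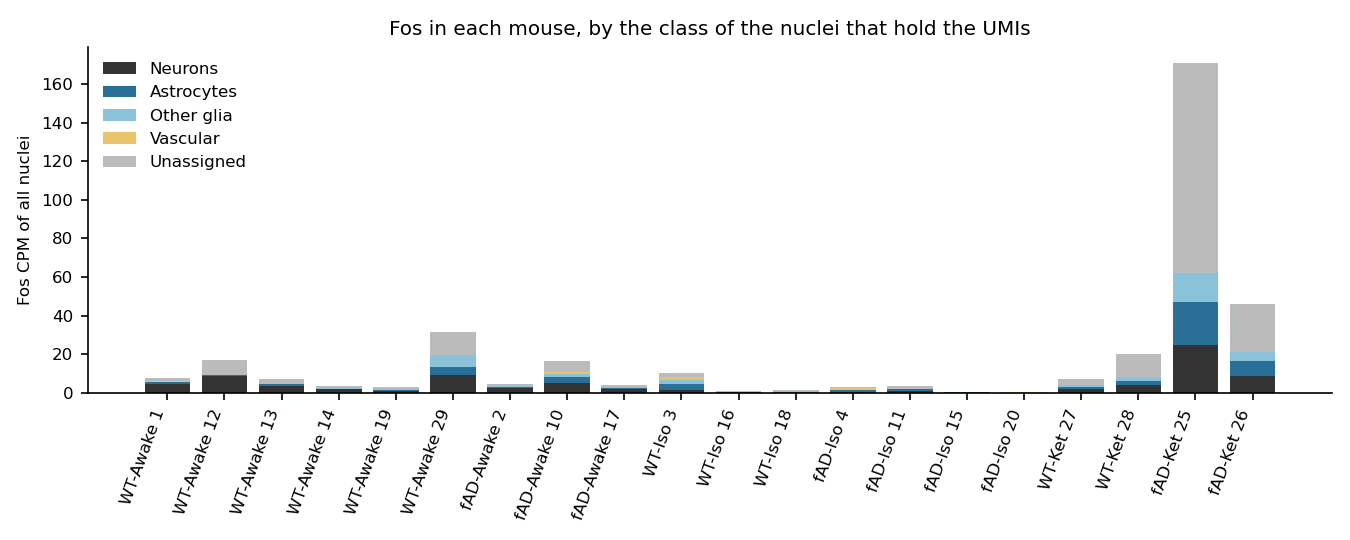
Fos level over all nuclei of every mouse, in CPM, as a bar divided by the share of the UMIs in neurons, astrocytes, other glia, vascular and unassigned nuclei, with mice ordered by state. Mouse 25 stands out at 171 CPM, of which unassigned nuclei hold the largest part, against 31.4 CPM in awake mouse 29.

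At the level of single nuclei the genes were sparse. In awake mice 1.62% of neurons had an Npas4 UMI and 1.78% a Fos UMI, as means over mice. To compare states at 1 depth each nucleus was thinned to 1000 UMIs, which left out 2154 of 32774 awake, 1450 of 28759 isoflurane and 418 of 8711 ketamine neurons. Of the shallower glia it left out 9818 of 18635 awake, 8518 of 15487 isoflurane and 4471 of 7563 ketamine nuclei, so the glial shares stand for the deeper nuclei. The thinned share of neurons with Npas4 was then 0.567% awake, 0.168% under isoflurane and 0.0818% under ketamine, and in glia it was 0.237%, 0.113% and 0.0548%. The last of these rests on 4 nuclei with an Npas4 UMI before thinning and was 0.0236% without mouse 26. Fos was found in 0.659%, 0.130% and 1.72% of thinned neurons, and Jun in 2.96%, 3.39% and 3.54%. The ketamine mice ran from 0.404% to 3.79% for Fos, and the mean was 1.03% without mouse 25. Under isoflurane it was 0.0859% without mouse 3. Median depth per mouse was 1555 to 4609 UMIs in awake neurons and 715 to 1661 in awake glia.

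Some pairs of the genes also occurred together in nuclei, in part of the states. Among awake neurons of 2000 to 4000 UMIs, 189 held Npas4, and 12.2% of these also held Fos (95% Wilson interval 8.25 to 17.6) against 1.62% of the other neurons. Egr1 was in 16.9% (12.3 to 22.9) against 2.37%, and Junb in 22.8% against 4.37%, whereas Jun was in 6.88% (4.06 to 11.4) against 7.48%. Mouse 13 gave 39 of the 189. Without it Fos was in 10.0% of 150 (6.15 to 15.8) against 1.69%, and Egr1 in 14.0% against 2.36%. Junb was then in 19.3% against 4.35% and Jun in 8.67% against 7.55%. Of 119 such ketamine neurons with Fos, 31.1% (23.5 to 39.9) held Jun against 7.25% of the rest. Npas4 was in 0.840% of the 119, which is 1 nucleus, against 0.205%. Mouse 25 gave 50 of the 119, and without it Jun was in 24.6% of 69 (16.0 to 36.0) against 6.02%. The share with Jun was higher among the neurons with Fos in 4 of 4 ketamine mice, which had 7 to 50 such neurons each. In awake neurons with Fos, 232 in all, Jun was in 12.5% (8.85 to 17.4) against 7.38%. Under isoflurane 17 such neurons of mouse 15 and 48 of the other mice held Npas4. Fos was in 0 of the 17 and 0 of the 48, Egr1 in 1 and 0, Jun in 2 and 2, and Junb in 2 and 6. Among the neurons without Npas4, Fos was in 0% and 0.345%, Egr1 in 0.993% and 0.833%, Jun in 7.39% and 8.04%, and Junb in 3.25% and 4.03%. The intervals cover counting error only, the neuron classes were not held equal, and nuclei of 1 mouse are not replicates.

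Genotype made no called difference to any of the 9 genes in neurons. In the fAD minus WT contrast, averaged over the states, edgeR called 0 genes of 18577 (0%), 0 members had an unadjusted p under 0.05 against 426 genes in all, and DESeq2 called 0 members. Egr1 came nearest, with a log2 difference of 0.52 ± 0.27 (unadjusted p = 0.068), and Npas4 was at 0.05 ± 0.21, Fos at 0.33 ± 0.53 and Jun at 0.25 ± 0.25. Awake Npas4 was 5.79 to 9.80 CPM in the 6 WT mice and 4.98, 5.63 and 7.48 CPM in the 3 fAD mice, which overlapped. Without mice 11, 14, 17 and 20 there were again 0 called members, with Egr1 at 0.63 ± 0.30 and Npas4 at 0.02 ± 0.21.

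The isoflurane response was likewise not shown to differ by genotype. The interaction called 0 genes (0%) with edgeR, 0 members with DESeq2, and 468 genes but 0 members at an unadjusted p under 0.05. The largest member values were -1.09 ± 0.69 for Egr4 and -1.08 ± 0.90 for Fosb on the log2 scale, lower in fAD, and Npas4 was at 0.24 ± 0.38. Within WT mice Npas4 was 4.29-fold lower under isoflurane (log2 -2.10 ± 0.28, adjusted p = 0.0049), the only one of the 9 members called, where 4 of 18577 genes (0.0215%) were called in all. Within fAD mice Npas4 (-1.86 ± 0.27, adjusted p = 0.015) and Egr1 (-1.90 ± 0.41, adjusted p = 0.046) were called, among 93 genes in all (0.501%). WT-Iso mice had Npas4 at 1.38, 2.40 and 1.41 CPM and fAD-Iso mice at 1.54, 1.34, 2.26 and 1.49 CPM. For ketamine, with 2 mice per genotype, the interaction of Egr1 was 2.02 ± 0.69 (unadjusted p = 0.0091, adjusted p = 1.0) and that of Fos 2.67 ± 1.28 (unadjusted p = 0.051). Without mice 11, 14, 17 and 20 the isoflurane interaction again called 0 members (Npas4 0.69 ± 0.46), Npas4 was still called within WT mice (-2.19 ± 0.29, adjusted p = 0.036), and neither Npas4 (-1.50 ± 0.37, adjusted p = 0.13) nor Egr1 (-1.95 ± 0.55, adjusted p = 0.18) was called within the 4 remaining fAD mice of the awake and isoflurane groups.

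Genes around the 10 in the same program were examined as lists. Of 20 other rapid response genes, 7 were lower under isoflurane in neurons and none higher, with a median log2 difference of -0.56. The strongest by adjusted p were Arc, the kinase phosphatase Dusp6 (-1.15), the nuclear receptor Nr4a3 (-1.13) and the salt-inducible kinase Sik1 (-1.05). Under ketamine 7 were lower and 1 higher, with a median of -0.93, led by Dusp6 (-2.27), Nr4a3 (-2.01), Arc (-2.84) and Nr4a1 (-1.25). Nr4a3 averaged 30.5 ± 11.6 CPM awake, 14.3 ± 3.85 under isoflurane and 7.69 ± 1.45 under ketamine.

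Delayed effector genes, which the factors switch on later, gave 3 lower of 14 under isoflurane, the synaptic scaffold Homer1 (-0.88), the prohormone convertase Pcsk1 (-1.18) and the chromatin remodeler Baz1a (-1.19). Under ketamine 4 of 14 were lower, Pcsk1 (-1.63), Homer1 (-1.06), the pentraxin Nptx2 (-2.08) and neuritin Nrn1 (-0.99). Homer1 averaged 200 ± 52.1 CPM awake, 109 ± 23.0 under isoflurane and 96.2 ± 8.47 under ketamine. The medians of this list were -0.23 and -0.49.

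Of 10 other AP-1 and bZIP family genes 8 were tested. None was called under isoflurane, and under ketamine Mafg was lower (-0.63) and Maff higher (1.12). Among 20 upstream regulators, which include kinases and the CREB and SRF activators, Camk4, the nuclear calcium kinase, was the 1 gene called under isoflurane (-0.65). Ketamine gave higher Rps6ka5 (0.80) and Elk3 (0.83) and lower Ep300 (-0.60) and Crem (-0.46). Of 6 partners and repressors, the Egr co-repressors Nab1 (-0.59) and Nab2 (-0.58) and the deacetylase Hdac4 (-0.41) were lower under isoflurane, and Nab2 (-0.70) and Hdac4 (-0.53) under ketamine. Over all genes 5.86% were called for isoflurane and 12.2% for ketamine in neurons, in either direction.

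The genes whose neuronal level over the 20 mice was most like the mean of the 9 tested members, by Pearson correlation of log2 CPM (prior count 2) among 18568 other genes, were Coq10b (r = 0.88), Nr4a2 (0.85), Stk38l (0.84), Basp1 (0.83) and Tmem121b (0.83). Arc had r = 0.76 and rank 35. The mice share state, run and depth, so these values are a description.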

How the data were processed

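Nuclei from frozen hippocampi of 20 mice were profiled with 10x Genomics 3' chemistry. The deposited values are raw UMI counts, 1 matrix of genes and nuclei per mouse, which the authors made with Cell Ranger 5.0.0 on mm10 according to the submitters' processing notes. The study's methods name CellBender, a minimum of 200 genes and DoubletFinder for later steps. The file headers name Cell Ranger only, and the fewest genes in a deposited nucleus was 229. The labels and the methods differ on the kit version and on how tissue was taken, and the series' text counts the groups differently from the sample labels, which were used here. The methods mention batches that the labels do not give, and runs of mouse numbers were used in their place without being a labelled batch.

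Raw counts were summed per mouse and class. Classes came from 8 markers each (at least 3 with a UMI, lead over the next class of at least 1), with thresholds set after marker detection was seen but without the values of the 10 genes. No doublet caller was run, and leaving out the 5% of nuclei with the most UMIs is an alternative. Sums were fitted with edgeR 4.0.16 in R 4.3.3 (TMM, filterByExpr, 6 groups of genotype and state, quasi-likelihood test, Benjamini-Hochberg threshold 0.05), keeping in a class the mice with at least 20 nuclei. Microglia lost 1 awake mouse by this rule, and vascular nuclei were not fitted. Where a left-out mouse leaves a group with 1 mouse, that mouse is assumed to vary like the others. The p-values measure the spread between mice. The steps were checked on simulated data.

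The 10 genes, the gene lists and the alternatives were chosen with earlier results of these data known. Named genes are the 10, up to 4 called genes per list with the smallest adjusted p, Arc, and the 5 genes most like the 10. DESeq2 1.42.0, RLE size factors, no gene filter, only the states compared, the run as a block, single mice or runs left out, a stricter gate (lead of 2), at least 500 genes per nucleus, and the same without the top nuclei were tried. The alternatives without mice 25 to 29 and without mice 11, 14, 17 and 20, the shares of nuclei without 1 mouse, and the comparison of glia with neurons were added after the data had been seen. Depth limits what can be seen of the rarer genes in single classes, where a few UMIs decide a value.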

Additional observations from a re-analysis of the deposited data

Results flagged for a closer look

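In groups of 4 to 6 mice each gene was searched for a mouse that stood apart from the rest of its group by Dixon's ratio, over 60 groups, of which chance picks out about 1 in 20. There were 2 such values. Npas4 over all nuclei was at 2.62 CPM in fAD-Iso mouse 15, with the nearest other mouse of that group at 1.58 CPM. Fos in glia was at 56.8 CPM in WT-Awake mouse 29, with the nearest at 14.4 CPM. Mouse 29 is the only awake mouse of the run of numbers that holds the ketamine mice, and the part of the run in its level was not tested.

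The response differed between glia and neurons of the same mice in 7 tests with edgeR, each relatively higher in glia. For isoflurane the log2 differences were 1.86 for Fos (adjusted p = 0.0090), 1.16 for Egr1 (adjusted p = 0.044, lost on leaving out any 1 of 14 mice) and 0.83 for Junb (adjusted p = 0.015). For ketamine they were 1.96 for Egr1 (adjusted p = 0.0062), 1.37 for Jun (adjusted p = 0.0073), 1.40 for Fosl2 (adjusted p = 0.028) and 1.11 for Junb (adjusted p = 0.021). All 3 isoflurane calls were lost without mouse 4 and without mice 1 to 4, and all 4 ketamine calls without mouse 27. These tests were added after the data had been seen.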

How the results depend on the processing

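For isoflurane against awake the 6 calls in neurons stood at 3 without mice 1 to 4 and at 3 without mice 11, 14, 17 and 20, and single left-out mice gave 4 to 6. The 4 calls over all nuclei stood at 2 without the nuclei with the most UMIs and 1 without mice 11, 14, 17 and 20 (single mice 2 to 5). The 1 call in glia, Npas4, was lost without mice 1 to 4 and without mice 11, 14, 17 and 20 (single mice 0 to 1). That gene was not tested in glia without mice 25 to 29, without the top nuclei, with the stricter gate and with at least 500 genes. The 16 calls in single classes stood at 10 without mice 1 to 4, 10 without the top nuclei, 7 without mice 11, 14, 17 and 20 and 6 with the stricter gate (single mice 10 to 18). For ketamine, single left-out mice gave 2 to 5 calls over all nuclei in place of 4, 2 to 5 in neurons in place of 3, 0 to 4 in glia in place of 3 and 4 to 15 in single classes in place of 10, which stood at 20 with no gene filter, 5 with the stricter gate and 6 without the top nuclei. Ketamine against isoflurane gave 1 call in place of 2 with only the states compared, with the stricter gate and without the top nuclei (single mice 0 to 3). The genotype and interaction counts were 0 to 0 under single left-out mice. The glia and neuron difference gave 0 to 3 calls in place of 3 for isoflurane, 0 without mice 1 to 4, and 0 to 5 in place of 4 for ketamine. The causes were not tested. Fits that leave out mice or nuclei also rest on fewer of them.

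Each mouse number occurs in a single group, so the states were not compared within mice, whereas glia and neurons were. For the states a replicate block of consecutive mouse numbers was used as an alternative. With the block, isoflurane gave 4 calls over all nuclei (Fosb lost, Fosl2 gained), 7 in neurons, 1 in glia and 21 in single classes, ketamine gave 1 over all nuclei, 1 in neurons, 0 in glia and 0 in single classes, ketamine against isoflurane gave 0, and genotype and interaction gave 0. Of the values of single genes under all alternatives, 719 of called genes stayed called and 123 did not. Of those of genes without a call 1475 stayed so and 23 gained one, and no called value changed direction. Thinning to 1000 UMIs moved 20 of the neuronal shares by more than 1 SD. Since thinning takes UMIs away from the nuclei it keeps, that count is no check on the shares. DESeq2 gave 6 calls for isoflurane in neurons and 4 for ketamine, and over all nuclei likewise 6 and 4.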

Other observations

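Jun in awake vascular nuclei and Fos in the same class were not compared between states, because no WT-Ket mouse had 20 vascular nuclei. Vascular Fos held 25 UMIs in awake mice, 61 under isoflurane and 1 under ketamine. Vascular nuclei held 15.0% of all Fos UMIs under isoflurane, 1.62% awake and 0.0245% under ketamine, and 11.1% of Junb UMIs under isoflurane against 2.44% awake. Mice 3 and 4, of high mitochondrial share, held 171 and 94 of the 283 vascular Junb UMIs under isoflurane and 30 and 23 of the 61 Fos UMIs, and awake mouse 10 held 43 of 82 and 17 of 25. In microglia Jun had 70 UMIs awake, 60 under isoflurane and 87 under ketamine.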
